A study of Mus musculus with 12 samples.

Results

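Lenses of mice homozygous for the Epha2-Q722 missense allele were compared with wild-type (WT) lenses by RNA-seq at postnatal day (P) 7. The comparison used 6 of the 12 libraries of the study, 3 of Epha2-Q722 and 3 of WT, chosen by genotype label, and all 8676 genes of the deposited count table. The remaining 6 libraries came from lenses homozygous for an insertion-deletion allele at the same codon (Epha2-indel722) or for a null allele (Epha2-null) and entered the estimate of the spread. Each library was prepared from 6 pooled lenses, so that a library is a pool and p-values measure the spread between pools. By the study's account the mice were on a C57BL/6J background, onto which the edited lines were bred. The founder strain and the number of generations of this breeding are not given in the sources used here. The Epha2-Q722 allele was introduced by CRISPR/Cas9 editing with a donor oligonucleotide, correctly edited founders were crossed to each other for homozygous offspring and bred onto C57BL/6J, and as a germline allele it is carried by the whole animal, not by the lens alone. The indel722 allele arose from the same editing, whereas the null allele is a vector insertion obtained as an existing line.

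EPHA2 is a receptor tyrosine kinase of the plasma membrane that binds ephrin-A ligands on neighboring cells, so that signals pass between cells in contact. In the lens it is found in the anterior epithelium and along the membranes of the fiber cells, which elongate, pack into radial columns and fill with crystallins, the soluble proteins that give the lens its refractive power. Inherited and age-related forms of human cataract have been linked to EPHA2, and mice lacking the receptor or its ligand ephrin-A5 have disordered lens cells.

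The edited codon is shown first because it defines the groups. Mouse Epha2 lies on the plus strand of chromosome 4 at chr4:141301240-141329384 (mm10), and the edited codon lies at chr4:141322248-141322250 within coding exon 13 of 17 (chr4:141322203-141322412). In the sequence of bases 2134 to 2196 of the 2934-base coding sequence, from the GENCODE vM21 transcripts, capitals mark the arginine codon that was changed.
Epha2 coding sequence around the edited codon: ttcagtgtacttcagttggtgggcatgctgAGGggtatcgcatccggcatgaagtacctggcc
The missense edit consists of A2164C and G2165A, counted from the first base of the start codon, which turns AGG into CAG and gives R722Q in a protein of 977 residues. The residue lies in the tyrosine kinase domain.

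The Epha2 transcript itself was little changed. Its level was 63.1, 51.4 and 56.0 CPM (reads scaled to a common library size with TMM factors) in the WT pools and 45.0, 47.3 and 54.4 CPM in the Epha2-Q722 pools. The groups overlapped, with Epha2-Q722 pool 3 inside the WT range. The log2 fold change was -0.21 ± 0.08 (standard error, SE), which did not pass edgeR's quasi-likelihood test with Benjamini-Hochberg adjustment over all genes (adjusted p = 0.156), although without Epha2-Q722 pool 3 it reached -0.30 with an adjusted p of 0.0316. Since counts are summed over the gene, they do not separate the edited from the unedited transcript and do not check the genotype.

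Library depth was similar in both groups, with 14543069 to 19874646 reads in WT and 15674528 to 20340688 in Epha2-Q722. Lens genes dominated every library: the 16 crystallin genes took 62.3%, 62.5% and 64.4% of reads in WT and 60.3%, 61.8% and 60.02% in Epha2-Q722. Markers of other tissues were scarce. None of the markers chosen for macrophages and leukocytes (15 genes), retinal neurons (15 genes) or corneal epithelium (11 genes) was among the listed genes, and 2 of 10 red blood cell, 2 of 16 endothelium, 4 of 11 pericyte and smooth muscle and 1 of 14 skeletal muscle markers were listed. Of 4 of 13 glia and fibroblast markers listed, 1 passed (Pdgfra, at 0.50 on the log2 scale) and 2 had an unadjusted p under 0.05; their summed level was 78.7 to 85.7 CPM in WT and 95.7 to 110.3 CPM in Epha2-Q722, and their part in the results was not tested. Of the 9 red blood cell, vessel and muscle markers 0 passed edgeR's test, 0 had an unadjusted p under 0.05 and 0 passed with DESeq2. All 9 were lower in Epha2-Q722, with list medians of -0.12, -0.14, -0.10 and -0.31 on the log2 scale. With library totals instead of TMM, 2 of 2 red blood cell, 1 of 2 endothelium and 3 of 4 pericyte and smooth muscle markers were higher. Without Epha2-Q722 pool 3 the skeletal muscle marker passed as a fall (-0.55). The part of these tissues was not tested. The pools differed in sex-linked transcripts, which bears on the comparison of the groups and on the spread, as described further on.

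The Q722 substitution was accompanied by few large and many small differences. A gene was called when its fold change reached 2 and its adjusted p was no higher than 0.05, which held for 70 of 8676 genes (0.807%), 31 rising (0.357%) and 39 falling (0.45%) in Epha2-Q722. The adjusted p alone was passed by 553 genes (6.37%), 239 rising (2.75%) and 314 falling (3.62%). Thus 483 of the 553 genes (87.3%) changed by less than 2-fold, 361 of them by less than 1.5-fold and 53 by less than 1.2-fold. All 70 called genes, and 547 of the 553, had 3 Epha2-Q722 pools entirely above or entirely below the 3 WT pools, a separation that 22.4% of all genes showed. In bulk lens RNA a lower level can reflect fewer cells of a type or less RNA per cell, and these cannot be told apart.

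**Figure D1:**
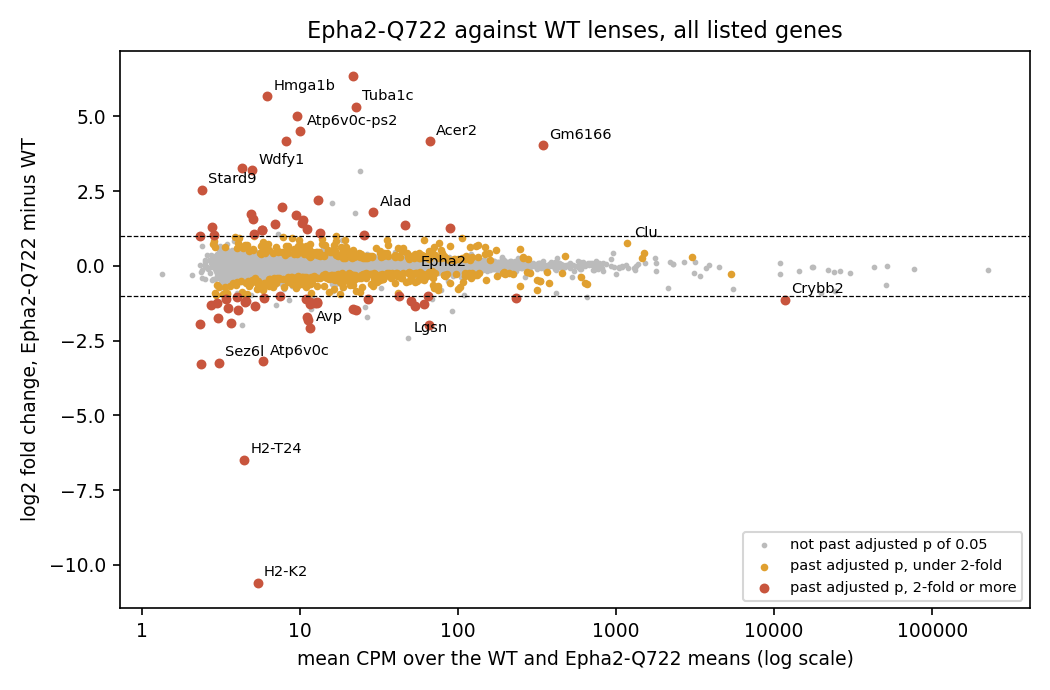
Log2 fold change between Epha2-Q722 and WT (vertical axis) against mean level in CPM (horizontal log axis) for all 8676 listed genes. Red points are the 70 called genes, orange points the 483 that passed the adjusted p at less than 2-fold, and dashed lines mark 2-fold. Most called genes lie at the left, at low levels; the height of H2-K2, with 0 reads in Epha2-Q722, depends on the prior count of the fit.

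Called genes were mostly of low level. In 28 of the 70 the mean was below 10 CPM in both groups, in 14 of the 31 rising genes the WT mean was below 3 CPM, and in 6 called genes a group mean reached 100 CPM. A gene below 3 CPM in every WT pool is listed only because other genotypes exceed that level. Rises among such genes are therefore partly built in. The share of genes past the adjusted p rose with level, from 4.71% of 1273 genes under 5 CPM to 10.4% of the 48 most abundant genes, while the median SE of the log2 fold change fell from 0.16 to 0.07.

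Among protein-coding genes without a near-identical copy, the largest rise was that of Acer2, which encodes an alkaline ceramidase of the Golgi. Its level was 7.45, 5.30 and 8.18 CPM in the WT pools and 112, 134 and 131 CPM in the Epha2-Q722 pools, a log2 fold change of 4.17 ± 0.11 (adjusted p = 1.6e-15). The Epha2-Q722 pools were close to each other and far from every WT pool. Wdfy1, an endosomal adaptor of Toll-like receptor signaling, measured 0.753, 1.12 and 0.965 CPM in WT and 9.18, 9.16 and 8.42 CPM in Epha2-Q722, with a log2 fold change of 3.21 ± 0.20 (adjusted p = 5.1e-11). Stard9, a mitotic kinesin, measured 0.452, 1.12 and 0.454 CPM in WT and 4.85, 4.15 and 3.27 CPM in Epha2-Q722, with a log2 fold change of 2.54 ± 0.26 (adjusted p = 3.6e-07). Both genes were at no more than 1.12 CPM in WT, where 3 counts per library correspond to 0.147 to 0.206 CPM, and higher in every Epha2-Q722 pool.

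Further called rises included genes of metabolism, membrane traffic and transcription. Alad, the second enzyme of heme synthesis, rose from 12.05, 13.3 and 13.6 CPM to 47.2, 46.6 and 40.9 CPM, by 1.78 ± 0.10 on the log2 scale (adjusted p = 3.9e-12). Sppl2a, an intramembrane protease of late endosomes and lysosomes, rose from 50.5, 53.7 and 50.9 CPM to 131, 132 and 112 CPM (log2 fold change 1.27 ± 0.07, adjusted p = 2.1e-12) and was the most abundant protein-coding riser after Acer2. The Epha2-Q722 pools did not overlap the WT pools for either gene. Insm1, a transcriptional repressor required for neuroendocrine cells to differentiate, rose from 2.48, 2.35 and 2.73 CPM to 7.56, 8.01 and 7.05 CPM (log2 fold change 1.58 ± 0.14, adjusted p = 2.5e-08). Scfd2, a member of the Sec1 family, Uggt2, a sensor of glycoprotein folding, and Itpr3, a calcium release channel of the endoplasmic reticulum, rose by 1.70, 1.73 and 1.203 on the log2 scale. Slc7a11, the cystine-glutamate exchanger of glutathione supply, rose by 1.35 ± 0.24 (adjusted p = 0.0108), from 19.8, 35.6 and 21.8 CPM to 79.1, 56.9 and 62.4 CPM. This rise did not pass without WT pool 3 or in a quasi-likelihood fit on the 6 libraries alone. An annotated transcript of Slc7a11 matches Tuba1b at 96.2% identity over 373 bases, and Tuba1a and Tuba1c nearly as closely, so its count is uncertain in the same way as those of near-identical copies.

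The largest falls included genes of the major histocompatibility complex on chromosome 17. H2-K2, annotated as a transcribed pseudogene, had 11.7, 9.83 and 10.6 CPM in the WT pools and no read in any Epha2-Q722 pool, so that 510 WT counts stood against 0. With a limit of 3 counts over the group, the level was at least 195-fold lower. H2-T24, a non-classical class I gene, had 9.03, 9.65 and 7.55 CPM in WT and 0.129, 0.1001 and 0.0511 CPM in Epha2-Q722. Its 417 WT counts against 5 gave a ratio of 95.8 with a 95% counting interval of 40.7 to 297. Reads of class I genes can map to several family members, so both losses are uncertain as to the gene, and of 7 measured genes of a list of class I and antigen-processing genes 0 passed edgeR's test, 0 had an unadjusted p under 0.05 and 0 passed with DESeq2; B2m, H2-K1 and H2-D1 were not analysed here. Intervals and limits cover counting error only.

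Other large falls were of varied function. Sez6l, a transmembrane protein of neurons, fell from 4.67, 6.12 and 5.68 CPM to 0.582, 0.300 and 0.868 CPM (log2 fold change -3.24 ± 0.25, adjusted p = 3.0e-09). Avp, which encodes the hormone precursor of vasopressin, fell from 15.4, 22.3 and 18.0 CPM to 4.14, 4.45 and 4.70 CPM (log2 fold change -2.07 ± 0.22, adjusted p = 7.3e-05). Every Epha2-Q722 pool was below every WT pool in both. Zfp365, a zinc-finger protein, was the largest fall at a moderate level, from 99.9, 106 and 106 CPM to 28.3, 27.0 and 24.2 CPM (log2 fold change -1.97 ± 0.09, adjusted p = 3.4e-11). Tsc2, which with Tsc1 restrains mTORC1, fell from 334, 289 and 329 CPM to 141, 156 and 151 CPM (log2 fold change -1.09 ± 0.09, adjusted p = 7.6e-08; under 2-fold, though past the adjusted p, with library totals), whereas Tsc1 itself measured 17.7, 18.7 and 19.1 CPM in WT and 18.0, 20.6 and 23.7 CPM in Epha2-Q722 and did not pass (adjusted p = 0.315). The transporters Slc22a15, Slc2a9 and Slc26a11 fell by 1.91, 1.73 and 1.46 on the log2 scale. Gm26782 and Gm13091, annotated as antisense transcripts, fell by 1.94 and 1.35 on the log2 scale, and reads of their partner genes on the other strand could not be set apart, as the strand setting of the counting is not given in the sources used here.

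**Figure D2:**
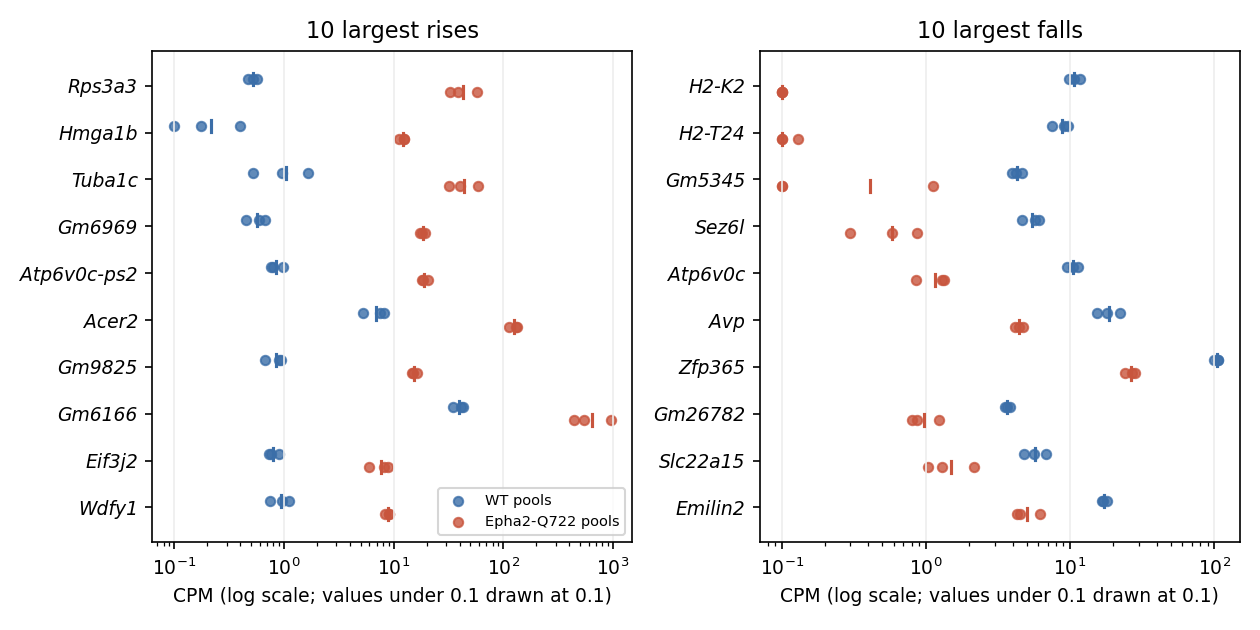
Level in every pool (CPM, log axis; values under 0.1 drawn at 0.1) of the 10 largest rises and the 10 largest falls among called genes, with WT pools in blue, Epha2-Q722 pools in red and the mean of 3 pools as a short line. No WT point overlaps an Epha2-Q722 point of the same gene, and the Epha2-Q722 points of Gm5345 are the most spread.

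Several of the largest rises were copies of more abundant genes. Of the 10 largest, Rps3a3, Gm6969, Atp6v0c-ps2, Gm9825 and Gm6166 are annotated as processed pseudogenes, which are intronless copies of messenger RNA inserted elsewhere in the genome, and Hmga1b, Tuba1c and Eif3j2 have a near-identical paralog. Over the whole table, 79 pseudogenes gave 9 called rises and 2 called falls (13.9%), against 0.637% of 8474 protein-coding genes. When the longest transcript of each gene was aligned to all GENCODE vM21 transcripts, 16 of the 70 called genes (22.9%) had a copy in another gene of at least 95% identity over 300 bases, 12 of the 31 rising and 4 of the 39 falling, against 9.49% of the genes not called. For these genes the counts depend on how the authors' alignment placed similar reads, and the division of reads between a gene and its copy is uncertain.

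The largest fall of a gene beside a rise of its copy was that of Atp6v0c, the proteolipid subunit of the vacuolar proton pump, with Atp6v0c-ps2. Atp6v0c (chr17:24163866-24169702) fell from 11.4, 10.5 and 9.60 CPM to 1.29, 0.851 and 1.33 CPM (log2 fold change -3.18 ± 0.16, adjusted p = 9.0e-13). Atp6v0c-ps2 (chr6:37806086-37806550) rose from 0.979, 0.765 and 0.795 CPM to 18.6, 18.1 and 20.6 CPM (log2 fold change 4.51 ± 0.14, adjusted p = 3.4e-16). The gene and its copy thus moved in opposite directions in all 3 pools. The changes were unequal, with means going from 10.5 to 1.16 CPM for the gene and from 0.846 to 19.1 CPM for the copy. Whether reads passed from one to the other was not tested. Their sequences are shown because only 1 base in 465 aligned bases, with 0 gaps, tells them apart in the reference. The lines give bases 81 to 140 of the aligned stretch, with the differing base (T111C, counted from the first aligned base, with the base of Atp6v0c first) in capitals.
Atp6v0c: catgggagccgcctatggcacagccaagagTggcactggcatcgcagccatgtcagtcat
Atp6v0c-ps2: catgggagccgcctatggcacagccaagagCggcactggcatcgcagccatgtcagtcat

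Other pairs showed a rise of the copy beside a smaller fall, or no passing difference, of the more abundant gene. Hmga1b, a copy of the chromatin architectural gene Hmga1 with 99.8% identity, rose from 11 pooled counts to 663 (ratio 52.4, 95% counting interval 29.1 to 105.6), while Hmga1 fell from 17.5, 18.5 and 17.7 CPM to 7.82, 8.96 and 6.23 CPM (log2 fold change -1.23 ± 0.13, adjusted p = 1.6e-06). Gm9825, a copy of Rnps1, rose by 4.16 on the log2 scale while Rnps1, a splicing and exon-junction factor, fell by 0.91 (adjusted p = 4.4e-10). Eif3j2 rose by 3.26 on the log2 scale while Eif3j1, a subunit of translation initiation factor eIF3, fell by 0.39 (adjusted p = 0.00233). Rps3a3 rose by 6.34 on the log2 scale while Rps3a1, its parent ribosomal protein gene, fell by 0.35 (adjusted p = 0.0477). For Gm6166, Gm6969, Rpl3-ps1 and Rps26-ps1, which rose by 4.03, 5.01, 2.19 and 1.54 on the log2 scale, the abundant relatives Fabp5, Cox7a2l, Rpl3 and Rps26 had log2 fold changes of -0.35, -0.02, -0.02 and 0.03, none of which passed.

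The same held for the alpha-tubulins, the building blocks of microtubules. Tuba1c rose from 0.527, 1.65 and 0.965 CPM to 59.2, 31.9 and 40.5 CPM (log2 fold change 5.32 ± 0.52, adjusted p = 4.0e-04). Tuba1a, which is 98.5% identical to it over 1307 aligned bases and far more abundant, fell from 745, 725 and 797 CPM to 494, 545 and 489 CPM (log2 fold change -0.57 ± 0.06, adjusted p = 1.4e-06). Tuba1b, 99.4% identical to Tuba1c, measured 29.4, 32.6 and 33.0 CPM in WT and 31.9, 30.5 and 29.2 CPM in Epha2-Q722 (adjusted p = 0.716). The groups were fully apart for Tuba1c and Tuba1a and overlapped for Tuba1b.

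**Figure D3:**
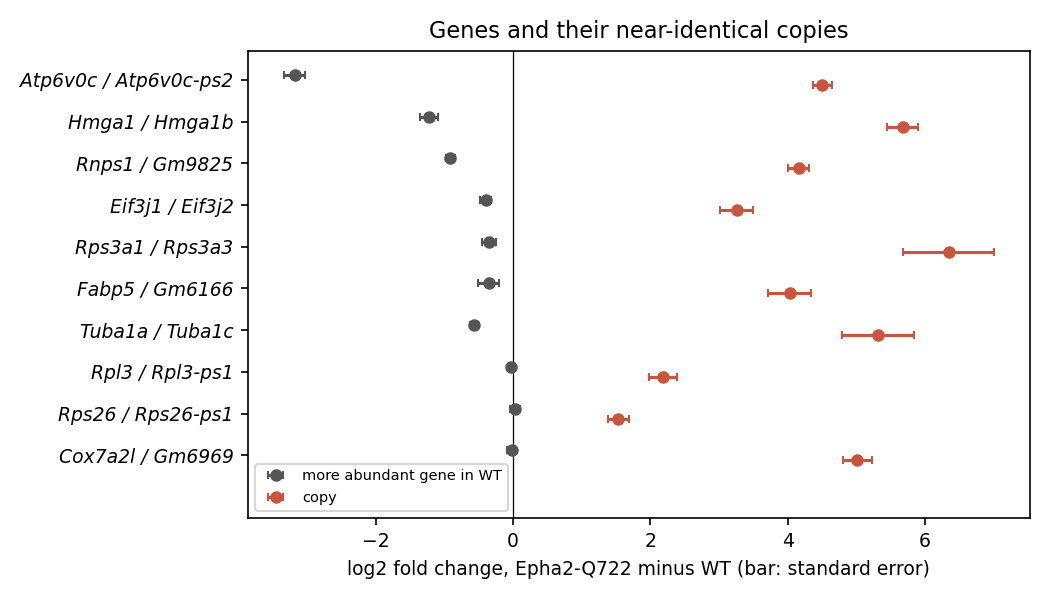
Log2 fold change between Epha2-Q722 and WT (horizontal axis) of 10 genes (gray) and their near-identical copies (red), with the standard error as a bar; pairs were chosen after their values were seen. Every copy lies to the right of 0, from 1.54 for Rps26-ps1 to 6.34 for Rps3a3, and the abundant genes lie between -3.18 for Atp6v0c and 0.03 for Rps26.

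Among the 483 genes that changed by less than 2-fold, the 10 most abundant rises ranged from 0.22 to 0.76 on the log2 scale. Clu, which encodes the secreted chaperone clusterin, rose most in proportion, from 904, 824 and 893 CPM to 1525, 1561 and 1363 CPM (log2 fold change 0.76 ± 0.08, adjusted p = 9.1e-07). Caprin2, an RNA-binding protein of lens fibers, rose from 1334, 1141 and 1386 CPM to 1519, 1656 and 1995 CPM (log2 fold change 0.42 ± 0.11, adjusted p = 0.0323). The pools did not overlap for either gene. Tkt, an enzyme of the pentose phosphate pathway, Slc7a8, an amino acid exchanger, and Sqstm1, an autophagy receptor, rose by 0.34, 0.56 and 0.40 on the log2 scale, and Eif5b, Dnajb1, Naca and Col4a4 by 0.22 to 0.31.

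Of the abundant falls, Mip, the water channel aquaporin 0 of fiber cells, fell from 5871, 5538 and 6018 CPM to 4670, 4991 and 4801 CPM (log2 fold change -0.27 ± 0.06, adjusted p = 0.00987). Pla2g16, a phospholipase of lens organelle removal, fell from 792, 773 and 819 CPM to 409, 587 and 555 CPM (log2 fold change -0.62 ± 0.10, adjusted p = 6.1e-04). Both were below WT in every pool. Uchl1, a deubiquitinase, fell by 0.50 on the log2 scale (adjusted p = 4.7e-05), and Ndrg1, Gsn, Ptpru and Vit, a stress-induced protein, an actin-severing protein, a receptor phosphatase and a matrix protein, fell by 0.36, 0.24, 0.20 and 0.46.

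The lists of lens, signaling and housekeeping genes held 957 measured genes, of which 47 rose and 57 fell past the adjusted p (10.9%), against 6.37% of all genes; the lists were drawn up with earlier results known, and their genes differ in level from the rest. The median log2 fold change over these members was -0.002, against 0.005 over all genes.

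Most crystallin genes were slightly lower with TMM scaling. Of 16 crystallin genes, 14 were lower in Epha2-Q722 with a median log2 fold change of -0.15, of which 1 fell and 1 rose past the test (12.5%). Without Epha2-Q722 pool 3 the median was -0.075 and 12 were lower. Crybb2, a beta-crystallin, fell from 13834, 17635 and 16716 CPM to 8021, 7837 and 6159 CPM (log2 fold change -1.13 ± 0.25, adjusted p = 0.0343), with all Epha2-Q722 pools below all WT pools. The Crybb2 call did not hold when any 1 of the 6 libraries was left out, with adjusted p values between 0.055 and 0.102. Crygn, a gamma-crystallin, rose from 2620, 2610 and 2879 CPM to 3289, 3694 and 3062 CPM (log2 fold change 0.31 ± 0.07, adjusted p = 0.0113). Crygf, with 30133, 31488 and 32171 CPM in WT and 14568, 15614 and 21813 CPM in Epha2-Q722, and Crygd had the next lowest log2 fold changes, -0.85 and -0.64, without passing (adjusted p = 0.0559 and 0.0911). Crygf and Crygd belong to a cluster of similar gamma-crystallin genes on chromosome 1 and may share reads, so the division among the genes of that cluster is uncertain. Crygn lies apart from it on chromosome 5. The number of lower members depended on scaling. With library totals instead of TMM, the median moved to 0.15 over all genes and to -0.005 over the crystallins. Of the 16, 8 were then higher, while 3 fell and 1 rose past the test. With DESeq2, 4 fell and 1 rose, and without WT pool 1 or Epha2-Q722 pool 2, 0 passed. In the main fit, 7 were lower and 1 was higher at an unadjusted p under 0.05.

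Of 24 measured lens transcription factors 0 passed edgeR's test and 0 passed with DESeq2, while 3 had an unadjusted p under 0.05, and the median was -0.03. Pax6, the master regulator of eye development, measured 71.4, 73.8 and 73.8 CPM in WT and 76.1, 75.4 and 72.6 CPM in Epha2-Q722, and Prox1, which drives fiber elongation, measured 592, 582 and 555 CPM and 573, 551 and 591 CPM. The groups overlapped in both. Among 19 fiber membrane genes (15.8% past the test, against 6.37% of all genes), Slc7a11 rose and Mip and the amino acid transporter Slc38a2 fell. That share was 21.1% with DESeq2 but 5.26% in the quasi-likelihood fit on 6 libraries. It was also 5.26% without WT pool 1, WT pool 3 or Epha2-Q722 pool 1. Among 11 intermediate filament genes (9.09%) Nes, a filament protein of progenitor cells, rose by 1.24 on the log2 scale (adjusted p = 1.5e-04). The beaded filament genes Bfsp1 and Bfsp2, with log2 fold changes of 0.10 and -0.24, did not pass, nor did the gap junction gene Gja3 (-0.04). Of 19 epithelial genes (15.8%), Clu and Cdh1, which encodes E-cadherin, rose and Ccnd1, which encodes cyclin D1, fell.

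Of 10 measured Eph receptors and ephrins 0 passed edgeR's test and 0 passed with DESeq2, while 3 had an unadjusted p under 0.05 (2 higher and 1 lower), and the median was 0.05. The ligand gene Efna5 measured 24.9, 29.1 and 19.3 CPM in WT and 26.9, 24.6 and 24.9 CPM in Epha2-Q722, the pools overlapping. Among 28 genes of Src and cortical actin signaling, 2 fell (7.14%, near the 6.37% of all genes). Csk, the kinase that restrains Src, fell by 0.25 and the small GTPase gene Rhob by 0.47 on the log2 scale (adjusted p = 0.0491 and 5.6e-04). With DESeq2, edgeR's exact test, the quasi-likelihood fit on 6 libraries or a replicate block, 1 gene of the list fell. The same held when any 1 of the 6 libraries except Epha2-Q722 pool 3 was left out. Src itself measured 11.8, 11.2 and 10.4 CPM in WT and 11.6, 11.4 and 10.2 CPM in Epha2-Q722, and its substrate Cttn had a log2 fold change of -0.11 (adjusted p = 0.336). Of 27 genes of cadherins, catenins and junctions, 2 rose and 2 fell (14.8%). Cdh1 rose from 55.9, 60.4 and 49.5 CPM to 93.3, 85.1 and 75.6 CPM (log2 fold change 0.61 ± 0.08, adjusted p = 8.4e-06). Nectin2 rose by 0.37, and Pcdh17 and Ctnna1 fell by 1.44 and 0.25. The fiber cadherin gene Cdh2 (-0.03) and Ctnnb1, which encodes beta-catenin (0.04), did not pass.

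Of 22 genes of FGF receptors and ERK feedback, 3 fell (13.6%, against 6.37% of all genes) and 0 rose (1 higher at an unadjusted p under 0.05, 0 higher with DESeq2). The falls numbered 2 with DESeq2, on 6 libraries, with a replicate block and without WT pool 1, WT pool 3 or Epha2-Q722 pool 1, and 1 without the pools unequal in sex-linked transcripts; with library totals 2 genes rose and 1 fell. Fgfr3, a receptor for the growth factors that drive fiber differentiation, fell from 250, 237 and 240 CPM to 191, 205 and 201 CPM (log2 fold change -0.28 ± 0.06, adjusted p = 0.00335). Fgfr2 fell by 0.21 (adjusted p = 0.0357) and the ERK phosphatase gene Dusp4 had a log2 fold change of -0.76 (adjusted p = 0.00103), its level going from 7.08, 8.12 and 6.13 CPM to 3.36, 4.15 and 4.95 CPM. No pool overlapped for these genes. Single genes of other pathways fell as well, with shares below the 6.37% of all genes. Wnt7a, a secreted Wnt ligand, was at -0.35 among 36 Wnt and planar polarity genes (2.78%). Smad6, an inhibitor of BMP signaling, was at -0.36 among 23 genes of TGF-beta, BMP and epithelial-mesenchymal transition (4.35%).

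Genes of the extracellular matrix and lens capsule moved in both directions, 5 rising and 3 falling of 34 (23.5%, against 6.37% of all genes). Without WT pool 3, 2 rose and 2 fell, and without WT pool 2, 8 rose and 3 fell; the median of 0.07 became 0.18 without WT pool 2 and 0.036 without WT pool 3. Fbn1, the microfibril protein of the zonule, rose from 2.41, 5.30 and 3.41 CPM to 12.4, 7.51 and 10.2 CPM (log2 fold change 1.39 ± 0.27, adjusted p = 0.0104). Fbn1 did not pass without WT pool 3 or in the quasi-likelihood fit on the 6 libraries alone. The basement membrane genes Lama1, Agrn and Col4a4 rose by 0.65, 0.54 and 0.31 and Col26a1 by 1.004. Col6a3 fell from 85.2, 86.7 and 86.9 CPM to 31.3, 28.2 and 46.7 CPM (log2 fold change -1.28 ± 0.16, adjusted p = 0.00103), and the elastic fiber genes Emilin1 and Mfap4 by 0.39 and 0.28. Emilin2, a relative of Emilin1 outside the list, fell from 18.1, 16.8 and 17.0 CPM to 6.21, 4.30 and 4.49 CPM (log2 fold change -1.81 ± 0.11, adjusted p = 5.1e-11). Among 27 axon guidance genes, 3 rose and 2 fell (18.5% past the test). The repellent Slit2 rose from 16.6, 19.7 and 13.5 CPM to 40.4, 34.3 and 26.4 CPM (log2 fold change 1.02 ± 0.18, adjusted p = 0.00781). Without WT pool 3 or Epha2-Q722 pool 1 or 2, Slit2 was under 2-fold, though past the adjusted p. Rgmb and its receptor gene Neo1 rose by 0.57 and 0.33, and Sema5b and Sema3a fell by 0.87 and 0.26.

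Microtubule genes had one of the higher shares past the test, 10 of 32 (31.25%, against 6.37% of all genes). Of these, 5 rose and 5 fell, and the list median was -0.03. Without WT pool 3, 4 rose and 3 fell. Tuba1c and Tuba1a, whose division of reads is uncertain, are among the 10. Beside the alpha-tubulins and Stard9, the microtubule-associated Map1a rose by 0.99 and the dynein light chain gene Dynll1 and the kinesin Kif5b by 0.32 and 0.27, while Tubb4b, Map6, Tppp3 and Camsap1 fell by 0.27, 0.32, 0.34 and 0.28. Of 36 genes of the cilium and centrosome (16.7% past the test), 3 rose (Stard9, Pcm1 and Ift46) and 3 fell (Bbs1, Ift74 and Ift122). Their median of -0.10 became 0.05 with library totals. The falls numbered 0 without WT pool 3 or with library totals, and 1 without Epha2-Q722 pool 1 or pool 3. Of 16 neuronal and neuroendocrine genes (37.5% past the test), 2 rose and 4 fell. Beside Insm1 and Avp, Camk2n1 rose by 0.94, and Uchl1, Syt5 and Syt11 fell by 0.50, 0.78 and 0.47.

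In cholesterol synthesis and uptake, 1 gene rose and 4 fell of 30 (16.7%, against 6.37% of all genes). Dhcr7, the last enzyme of the pathway, fell from 51.6, 59.9 and 57.7 CPM to 28.8, 26.9 and 28.7 CPM (log2 fold change -1.01 ± 0.12, adjusted p = 4.8e-05), with every pool below WT; without WT pool 2 or 3 or Epha2-Q722 pool 2 it was under 2-fold, though past the adjusted p. Sc5d, the enzyme before it, and the sterol sensor gene Scap fell by 0.42 and 0.31, and Acat2 rose by 0.60. Of 17 sphingolipid genes (11.8% past the test), Acer2 rose and Asah1, the lysosomal acid ceramidase, fell. Asah1 went from 13.2, 11.9 and 10.4 CPM to 7.05, 5.96 and 7.91 CPM (log2 fold change -0.76 ± 0.11, adjusted p = 9.6e-05). Of 15 chloride channel genes (13.3% past the test), Clcn4 and Clcn7 fell by 0.30 and 0.35 (adjusted p = 0.0345 and 0.0435). However, 0 genes of the list passed with DESeq2 or in the quasi-likelihood fit on 6 libraries. The same held without WT pool 1, WT pool 3, Epha2-Q722 pool 1 or Epha2-Q722 pool 2. Clic5 measured 143, 121 and 135 CPM in WT and 99.0, 91.9 and 153 CPM in Epha2-Q722 (adjusted p = 0.815), pool 3 lying above and the other pools below WT. Of 21 heat shock genes (19.05% past the test), Bag3, Hspb8 and Dnajb1 rose by 0.53, 0.77 and 0.26 and Hspb6 fell by 0.48. Of 10 annexins and S100 genes (20% past the test), Anxa3 and Anxa5 rose by 0.90 and 0.72.

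In the large housekeeping lists the share past the test was near that of all genes (6.37%). Of 77 ribosomal protein genes, 4 fell (Rpl21, Rps18, Rps2 and Rps3a1, with log2 fold changes of -0.82, -0.67, -0.56 and -0.35) and 0 rose (1 higher at an unadjusted p under 0.05, 0 higher with DESeq2), with a median of 0.04 (5.19% past the test). Of 74 nuclear genes of oxidative phosphorylation, 1 rose and 4 fell (6.76%), and without WT pool 3 or without Epha2-Q722 pool 1 the falls numbered 0. Of 27 cell cycle genes, 1 rose and 1 fell (7.41%), of 47 lysosome and autophagy genes, 1 rose and 1 fell (4.26%), and of 22 genes of the unfolded protein response, Herpud1 rose by 0.34 (4.55%). One marker of glia and fibroblasts among 4 measured, Pdgfra, rose from 52.6, 57.5 and 51.3 CPM to 81.3, 77.2 and 69.5 CPM (log2 fold change 0.50 ± 0.07, adjusted p = 3.2e-05).

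**Figure D4:**
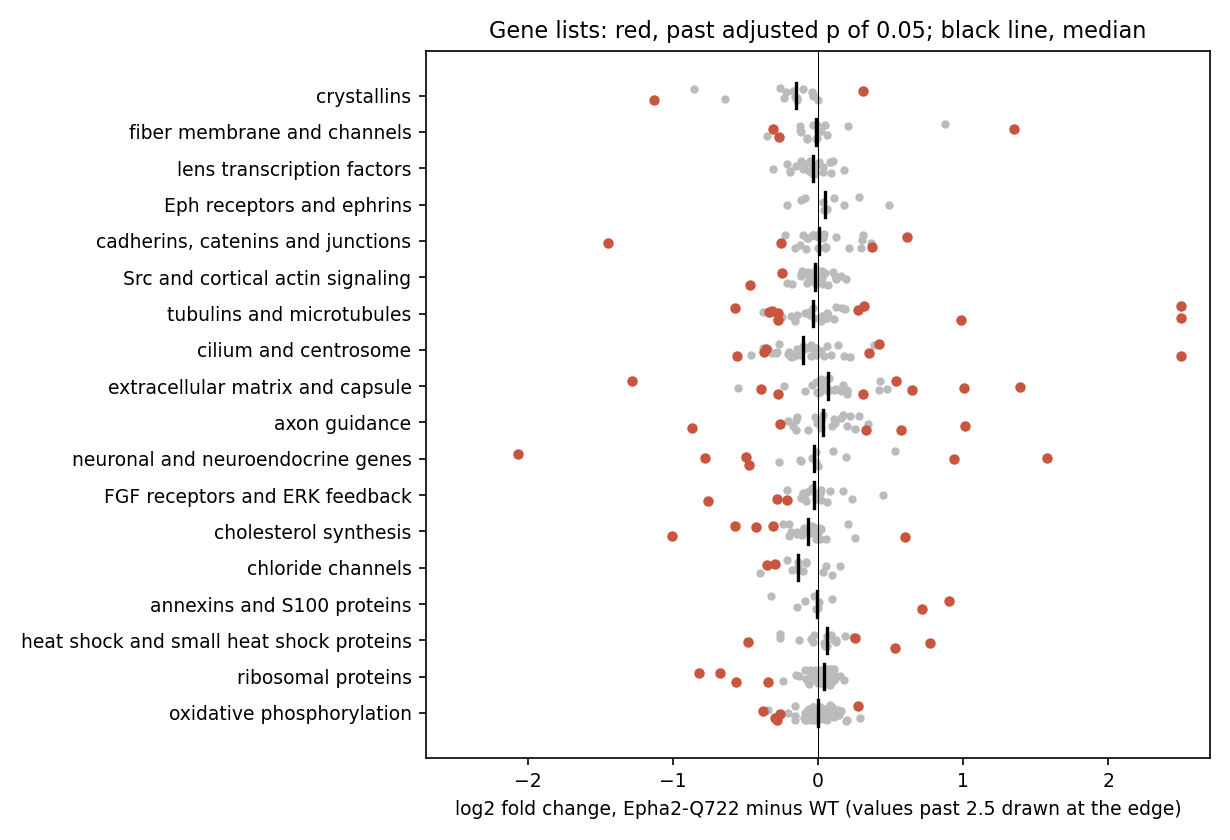
Log2 fold change between Epha2-Q722 and WT (horizontal axis) of every measured member of 18 gene lists (rows); red points passed the adjusted p, gray points did not, black lines are list medians, and 3 points past 2.5 are drawn at the edge. Medians lie between -0.15 for crystallins and 0.07 for extracellular matrix, and red points lie on both sides in most lists.

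Genes past the adjusted p were unevenly placed along the genome. The share per chromosome was highest on chromosome 17 (13.3% of 407 genes), chromosome 5 (10.1% of 592) and chromosome 1 (9.98% of 511) and lowest on the X chromosome (1.87% of 267), the Y chromosome, with 1 of 3 genes, set aside. In intervals of 10 Mb with at least 20 genes (170 intervals, examined after the calls were known), the median share was 5.10% and 6 intervals exceeded 20%. The interval from 20 to 30 Mb of chromosome 17 held 26 passing genes of 111 (23.4%), 11 rising and 15 falling, among them Atp6v0c, Tsc2, Hmga1, Rnps1, Rps2, Itpr3, Cacna1h, Clcn7, Telo2 and Decr2. The interval from 120 to 130 Mb of chromosome 2 held 18 of 64 (28.1%), 9 rising and 9 falling, including Stard9, Map1a, Eif3j1, Fbn1, Sppl2a and Gm14005. Adjacent intervals of chromosome 5, from 60 to 70 and from 70 to 80 Mb, held 6 of 21 (28.6%) and 9 of 28 (32.1%), including Fam114a1, Limch1, Uchl1, Ociad2, Scfd2 and Pdgfra.

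The numbers passing in the other genotypes against the same WT pools varied between intervals. In the interval of chromosome 5 from 70 to 80 Mb, 9 genes passed in the Epha2-Q722 lenses, against 1 each for Epha2-indel722 and Epha2-null, and in that from 60 to 70 Mb the numbers were 6, 5 and 3. In that of chromosome 8 from 40 to 50 Mb (28 genes, with Pcm1 and Asah1 among those passing) the numbers were 6, 1 and 1. On chromosome 1 from 90 to 100 Mb (33 genes) they were 7, 6 and 2. On chromosome 17 they were 26, 25 and 11, and on chromosome 2 they were 18, 6 and 15. Over all genes, 13.1% passed in Epha2-indel722 against WT and 11.2% in Epha2-null. Around the edited locus no such excess was seen: within 10 Mb on either side of Epha2, 2 genes rose and 4 fell past the test among 140 (4.29%), and 1 of them, the antisense transcript Gm13091, was called. What sets the uneven placement was not tested.

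The Epha2-Q722 pools were less alike than the WT pools. The biological coefficient of variation, which edgeR estimates from replicate counts, was 0.0898 for Epha2-Q722, 0.0584 for WT, 0.0617 for Epha2-indel722 and 0.0779 for Epha2-null. The median gene differed little, with a standard deviation of log2 CPM of 0.11 in Epha2-Q722 and 0.10 in WT. Of 5373 genes with at least 10 CPM, 30 spanned more than 2-fold over the Epha2-Q722 pools, against 8 over the WT, 15 over the Epha2-indel722 and 19 over the Epha2-null pools. The 30 were chosen by their range over the Epha2-Q722 pools, so a narrower WT range is partly built in. In 26 of the 30 the WT pools spanned less than 1.5-fold. In 10 of the 30 at least 1 Epha2-Q722 pool was more than 2-fold away from the WT mean while another lay within 1.2-fold of it.

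Pool 3 stood apart most often. The Spearman correlation over all genes was 0.991 between Epha2-Q722 pools 1 and 2 and 0.985 between each of them and pool 3, against 0.989 to 0.991 between WT pools and 0.976 to 0.980 between the groups. Pool 3 was the farthest from the other pools in 44.1% of the 5373 genes, against 26.7% for pool 1 and 29.3% for pool 2, and in 21 of the 30 most spread genes. It was also the pool with the lowest count share of the ribosomal RNA locus CT010467.1, which measured 26163, 10737 and 4328 CPM in the Epha2-Q722 pools and 27118, 32346 and 18547 CPM in WT. Ribosomal protein genes were mostly higher in pool 2 (90.9% of 77 above the mean of the Epha2-Q722 pools) and lower in pool 3 (16.9%). The part of library composition in the spread was not tested.

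Lgsn, which encodes the lens protein lengsin of late fiber differentiation, was one of the most unequal genes. It measured 83.2, 75.7 and 84.3 CPM in the WT pools and 0.582, 24.6 and 18.6 CPM in Epha2-Q722. All 3 Epha2-Q722 pools were below WT, but pool 1 was at a small fraction of pools 2 and 3. The log2 fold change of -2.42 ± 0.64 did not pass (adjusted p = 0.0681), but the exact test of edgeR gave 0.0139, the fit without robust estimation 0.00265 and the fit without pool 1 a log2 fold change of -1.90 with 0.0221. Pygm, the glycogen phosphorylase of muscle, was also lowest in pool 1, with 138, 126 and 144 CPM in WT and 5.82, 57.9 and 78.2 CPM in Epha2-Q722, and passed without pool 1 (log2 fold change -0.998, adjusted p = 5.4e-04).

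In other genes pools 1 and 2 were alike and pool 3 was at the WT level. Cd44, a receptor for hyaluronan, measured 42.9, 33.2 and 36.3 CPM in WT and 2.72, 2.85 and 36.1 CPM in Epha2-Q722. Nat8l, which makes N-acetylaspartate, measured 35.2, 27.4 and 31.2 CPM in WT and 3.94, 3.25 and 27.4 CPM in Epha2-Q722. In both, pools 1 and 2 were far below WT and pool 3 was inside the WT range. Neither gene passed with all pools (adjusted p = 0.402 and 0.304), whereas without pool 3 the log2 fold changes were -3.74 and -3.12 (adjusted p = 1.4e-04 and 8.0e-05). Leaving out pool 3 gave 35 called rises and 49 called falls, 22 of them not called with all pools.

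The opposite pattern, a rise in pool 3 alone, was seen in the processed pseudogenes Gm15772 and Rpsa-ps10. Gm15772 measured 4.97, 4.83 and 4.66 CPM in WT and 4.98, 5.26 and 118 CPM in Epha2-Q722, and Rpsa-ps10 measured 5.87, 6.53 and 5.73 CPM in WT and 6.79, 7.26 and 62.6 CPM in Epha2-Q722. Malat1, a nuclear long non-coding RNA, measured 721.6, 635 and 745 CPM in WT and 442, 430 and 1475 CPM in Epha2-Q722, so that pool 3 was above and the others below WT. Rpl26, with log2 differences from the WT mean of -0.00, 0.09 and -1.06, and Ngfr, with -0.42, -0.01 and 1.13, also set pool 3 apart. Gas5, a non-coding host gene of small nucleolar RNAs, measured 144, 139 and 153 CPM in WT and 32.6, 121 and 66.5 CPM in Epha2-Q722, all 3 pools below WT by different amounts.

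**Figure D5:**
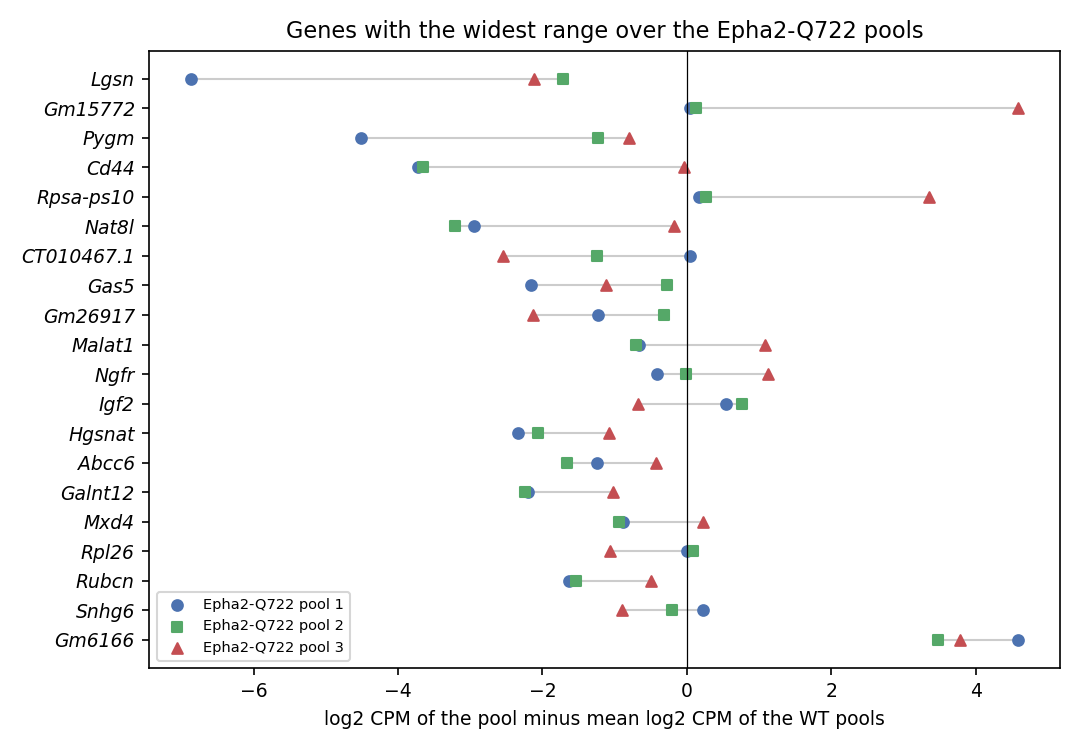
Difference of each Epha2-Q722 pool from the mean of the WT pools (log2 CPM, horizontal axis) for the 20 autosomal or X-linked genes of at least 10 CPM with the widest range over the Epha2-Q722 pools; circles, squares and triangles are pools 1, 2 and 3, and gray lines join them. Pool 3 alone is near 0 for Cd44 and Nat8l and alone far above 0 for Gm15772 and Rpsa-ps10, while pool 1 alone is lowest for Lgsn and Pygm.

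Sex-linked transcripts showed that the pools were not balanced. The Y-linked Ddx3y measured 18.1, 25.2 and 8.57 CPM in WT and 0, 7.21 and 10.9 CPM in Epha2-Q722, and Xist, which is transcribed from the inactive X chromosome, measured 6.85, 0.177 and 22.5 CPM in WT and 43.4, 23.03 and 37.1 CPM in Epha2-Q722. Xist was higher in every Epha2-Q722 pool than in every WT pool, narrowly so at 23.03 against 22.5 CPM, while Ddx3y overlapped. Without Epha2-Q722 pool 1 and WT pool 2, Ddx3y overlapped as well. For Xist leaving out pools is no check, since groups that are apart over all pools stay apart in any part of them. The part of sex composition in the differences between the groups was not tested and cannot be told apart from genotype. Epha2-Q722 pool 1 held no read of Ddx3y and WT pool 2 almost none of Xist. Without these 2 pools, a fit chosen after seeing the data, 29 rises and 38 falls were called and 61 of the 70 calls remained; 166 rises and 190 falls passed the adjusted p, against 239 and 314 with all pools.

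Called genes had to pass a test that weighs differences against the spread between pools. Less spread than in the most spread genes is therefore built in. In 46 of the 70, every Epha2-Q722 pool was more than 2-fold away from the WT mean in the same direction, in 4 the weakest pool was within 1.5-fold, and in 9 the pools spanned more than 2-fold. The widest was Gm5345, a processed pseudogene with 4.22, 3.94 and 4.66 CPM in WT and 0, 0.1001 and 1.12 CPM in Epha2-Q722. Its fall did not pass in the quasi-likelihood fit on the 6 libraries alone. Rsad2, an interferon-induced antiviral gene, fell unevenly, from 16.4, 18.7 and 17.0 CPM to 8.99, 9.06 and 3.98 CPM (log2 fold change -1.26 ± 0.30, adjusted p = 0.0406), and Cd59a, an inhibitor of complement, rose from 6.25, 5.002 and 5.39 CPM to 18.2, 19.6 and 7.40 CPM (log2 fold change 1.44 ± 0.34, adjusted p = 0.0435). For Cd59a, pool 3 was the lowest and closest to WT. Both calls ended without any 1 of the WT pools or without Epha2-Q722 pool 1, that of Cd59a also without pool 2 and that of Rsad2 also without pool 3.

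The 70 called genes were also compared directly between genotypes. Tests of Epha2-Q722 against Epha2-indel722 and against Epha2-null, which passed for 12.4% and 17% of all genes, use the same Epha2-Q722 pools that gave the calls, so a distance from the other genotypes is partly built in. The Epha2-Q722 level was farther from WT than that of Epha2-indel722 for 40 of the 70 genes, than that of Epha2-null for 55 and than that of both for 34. Zfp365 was among the 34, with log2 fold changes against WT of -1.97, -0.92 and -0.56 in the Q722, indel722 and null lenses, as were Alad (1.78, 0.62 and -0.14), Sppl2a (1.27, 0.18 and 0.30) and Slit2 (1.02, -0.42 and -0.42). Acer2 was farther from WT than in Epha2-null, with log2 fold changes of 4.17, 4.15 and 0.06. Dhcr7 and Gm13091 were nearer to WT in Epha2-Q722 than in both other genotypes, at -1.01, -1.502 and -1.40 and at -1.35, -3.15 and -1.84. For 6 of the 70 genes Epha2-Q722 differed from neither genotype by the test.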

How the data were processed

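RNA of 6 pooled P7 lenses per library was selected for poly-A, and the authors aligned paired-end reads to mm10 with STAR 2.5.3a, filtered alignments with SAMtools 1.4.1 and obtained gene counts with HTSeq 0.11.0; the annotation release and strand setting are not given in the sources used here. The deposited table holds whole read counts, which were tested, and CPM that the authors computed from full library totals, used here to recover those totals. It also holds the fold changes and p-values of the authors' edgeR comparisons, which were not used. Only genes over 3 CPM in 6 or more of the 12 libraries are listed (the lowest sixth-highest value is 3.01), so genes of lower level were not analysed here. Date-like symbols of 14 genes were restored by Ensembl ID, and 1 gene had no position in GENCODE vM21.

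Counts were tested with edgeR 4.0.16 in R 4.3.3 (TMM, genotype as the only factor, all 12 libraries, 8 residual degrees of freedom, robust quasi-likelihood fit, two-sided) with Benjamini-Hochberg adjustment over all 8676 genes. Fold changes use a prior count of 0.125, and SEs were derived from fold changes and test statistics. Transcripts were aligned with BLAST 2.17.0+. On simulated counts, 28 of 50 genes changed 2-fold and 50 of 50 changed 4-fold were called, 37 of 50 changed 1.5-fold passed the adjusted p, and 11 of 8476 unchanged genes passed. Members and lists were chosen with earlier results of these data known. Named are the genes the study discusses, the 10 largest called rises and falls with at least 1 CPM in a group, the 10 most abundant in each direction past the adjusted p under 2-fold, list members past it (except one not reported here), and the 10 most spread over the Epha2-Q722 pools at 10 CPM or more; all others were named after their values were seen. Alternatives were other scalings (DESeq2 1.42.0 among them), fits on 6 libraries, a level filter, a replicate block and leaving out libraries.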

Additional observations from a re-analysis of the deposited data

Results flagged for a closer look

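Insm1 moved in opposite directions in 2 genotypes against the same WT pools, rising by 1.58 on the log2 scale in Epha2-Q722 and falling by 1.34 in Epha2-null; the difference of 2.91 passed edgeR's quasi-likelihood test (adjusted p = 3.6e-12). Gm14005, a long non-coding RNA gene, fell by 1.32 in Epha2-Q722 and rose by 1.70 in Epha2-indel722 and by 1.28 in Epha2-null, with differences of -3.02 (adjusted p = 3.9e-09) and -2.60 (adjusted p = 5.2e-08). What sets these differences was not tested.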

How the results depend on the processing

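No called direction reversed under the alternatives run, although with library totals several list medians below 0 rose above it (cilium and centrosome from -0.10 to 0.05). With library totals, 1163 rises and 134 falls passed the adjusted p, 45 rises and 29 falls were called (60.8% rising against 44.3%), the median of all genes was 0.15, 198 list members passed against 104, and 60 of the 70 calls remained; Tsc2, Crybb2, Dhcr7, Ociad2 and Fam114a1 were among those no longer called, all under 2-fold but past the adjusted p. At 10 CPM or more, 9 rises and 18 falls were called, all 27 also called in the full table, and 157 rises passed. Leaving out each library in turn gave 28 to 35 called rises, 36 to 49 called falls, 159 to 237 passing rises, 211 to 332 passing falls and 64 to 102 passing list members; the lowest passing counts, 159, 211 and 64, came without WT pool 3. Without the pools unequal in sex-linked transcripts, 190 falls passed. DESeq2 called 32 rises and 42 falls, all 70 calls among them, and a quasi-likelihood fit on the 6 libraries alone called 26 and 35. In the latter, Rsad2, Fbn1, Slc7a11, Cd59a, Galnt12, Fmo1, Gm6472, Gm5345 and Sox2ot no longer passed the adjusted p. Leaving out 1 library kept 58 to 64 of the 70 calls. Same-numbered WT and Epha2-Q722 pools did not deviate together (r of -0.100, -0.036 and -0.102), so the numbers gave no sign of pairing. Differently numbered pools had r of 0.199 (WT 1 with Epha2-Q722 3), 0.121 (WT 2 with Epha2-Q722 1) and 0.187 (WT 3 with Epha2-Q722 2). The remaining combinations had r of -0.148, -0.078 and -0.046. Pairing in another order was not tested. With a block of same-numbered replicates, 29 rises and 38 falls were called and 242 and 309 passed. Rsad2, Cd59a, Crybb2 and Gm6472 were then no longer called. Depth limits genes near 3 CPM, where the SE is largest.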
